A study of Mus musculus with 12 samples.

Results

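The 4 control libraries of a mouse embryo series, each made from a pool of 10 blastocysts, are described here gene by gene. They were chosen by their labels alone, as the libraries named HFD_C and ND_C, and are 4 of the 12 libraries in the series. The series asked what Nampt, the enzyme also known as visfatin, does in early embryos of obese and normal weight mice, and in its other 8 libraries the embryos had received siRNA by electroporation at the 1-cell stage. The sources used here do not say whether control embryos were electroporated too, and no control library was set against an siRNA library.

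HFD_C comprised 2 libraries of control embryos labelled HFD, and ND_C comprised 2 libraries of control embryos labelled ND. The labels do not spell out either abbreviation, and the series' title contrasts obese with normal weight animals. All 4 pools came from wild-type ICR mice, an outbred stock. Oocytes were collected after superovulation, fertilised in vitro and grown in KSOM, a simple embryo medium, to 96 h after insemination. The sources used here give neither the ages of the mice nor how many females supplied a pool. A pool of 10 embryos is 1 sample, so differences between single embryos are not seen. The replicate number 1 or 2 is also the batch number in the labels. Poly(A) RNA was amplified with a SMART-Seq kit, a method for very small inputs.

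A blastocyst is a hollow ball of cells reached shortly before implantation. Its outer layer, the trophectoderm, is an epithelium that pumps fluid into the cavity and later builds the placenta. The inner cells separate into the epiblast, which gives rise to the fetus, and the primitive endoderm, which gives rise to the yolk sac. By this stage most maternal RNA has been replaced by transcripts of the embryo's own genome, and the embryo relies on mitochondrial respiration.

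Each library held between 45292145 and 49464253 expected counts, a 1.09-fold range, over a table of 24411 genes. Between 16626 and 17003 genes had a count in a library. Levels are given in TPM, a unit per transcript length in which each library sums to the same total, so levels may be compared between genes. A gene with 0 counts in a library can have had a level of up to 3 counts of its total, which is between 0.0607 and 0.0662 CPM (expected counts scaled by the library's total). This limit covers counting error only. The counts of any pair of the 4 libraries differed by far more than counting error, with a chi-square of 50.2 to 88.7 per gene. No pair was thus a single library deposited a second time, and this check shows no more than that.

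The label of blastocyst was checked against lineage markers, and markers of all lineages were present in all 4 libraries. Dppa5a, a pluripotency-associated RNA-binding protein gene, had 30505 and 30647 TPM in HFD_C and 31417 and 30598 TPM in ND_C. Krt18, a keratin of the trophectoderm, had 2106 and 2673 TPM in HFD_C and 2729 and 2425 TPM in ND_C. Fabp3, which encodes a fatty acid binding protein, had 16729 and 20437 TPM in HFD_C and 18718 and 17747 TPM in ND_C. For each of these genes the HFD_C and ND_C values overlapped. Nanog, a transcription factor of the epiblast, had 45.2 and 39.5 TPM in HFD_C and 54.8 and 65.9 TPM in ND_C. Gata6, a transcription factor of the primitive endoderm, had 36.4 and 35.3 TPM in HFD_C and 48.8 and 49.4 TPM in ND_C. For Nanog and Gata6 both HFD_C values lay below both ND_C values, a difference that did not pass the test given further on. With 2 libraries a group such an order can arise by chance, and its share over all genes was not counted. In bulk pools, fewer cells of a type and less RNA per cell cannot be told apart.

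The RNA of these embryos was concentrated in few genes. At or above 1 TPM there were 9431 and 9731 genes in the HFD_C libraries and 9761 and 9888 in the ND_C libraries, and 8981 genes, 36.8% of the table, passed in all 4. At or above 10 TPM in all 4 there were 4384 genes, at or above 100 TPM 1258, at or above 1000 TPM 192 and at or above 10000 TPM 4. The 4 highest genes held 7.58% of the mean TPM, the 100 highest 37.3% and the 1000 highest 81.6%. It took 47 genes to reach 25% of all TPM, 188 to reach 50% and 1836 to reach 90%. Protein-coding genes held 97.7% of the TPM and transcribed pseudogenes 1.48%, by the gene types of the RefSeq table.

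Dppa5a alone held 3.08% of the TPM. It lies on chromosome 9 at chr9:78367052-78368199 (GRCm38). Fabp3 came next, followed by Ppia, which encodes cyclophilin A, a protein-folding enzyme. Ppia had 14808 and 15175 TPM in HFD_C and 14385 and 13706 TPM in ND_C. Gabarapl2, a member of the ATG8 family that works in autophagy and vesicle traffic, was the fourth gene above 10000 TPM, with 13432 and 11169 TPM in HFD_C and 11860 and 11952 TPM in ND_C. These 4 genes stood in the same order in all 4 libraries, and no other gene reached 10000 TPM in any library.

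Below them came Lgals1, which encodes the sugar-binding protein galectin-1, with a mean of 7546 ± 1507 TPM (SD, n = 4 libraries, as for all such means here). Rps27l, a ribosomal protein gene, had 6495 ± 394 TPM. Cd63, a tetraspanin of late endosomes, had 5787 ± 538 TPM, and Tmsb10, an actin-binding thymosin, had 5784 ± 1297 TPM. The actin-binding genes Pfn1, at 4495 ± 519 TPM, and Tmsb4x, at 3989 ± 2232 TPM, were also among the 25 highest. H2afz, which encodes the histone variant H2A.Z, had 4278 ± 575 TPM. Dppa3, a maternal and germline factor that shields DNA from oxidation of methylcytosine in the zygote, had 4844 and 3157 TPM in HFD_C and 6167 and 5604 TPM in ND_C. Crxos, a homeobox gene of the early embryo, had 6561 and 3462 TPM in HFD_C and 4900 and 4367 TPM in ND_C. HFD_C replicate 2 was the lowest library for both Dppa3 and Crxos.

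Of the 25 highest genes 6 were ribosomal protein genes, among them Rps27l, Rpl41, Rps29, Rpl38 and Rpl35, and 4 encoded subunits of respiratory complexes (Cox7c, Cox6c, Atp5j and Cox5a). Usmg5, a small protein bound to ATP synthase, had 4612 ± 247 TPM, and Eif2s2, the beta subunit of the initiation factor that brings initiator tRNA to the ribosome, had 3737 ± 272 TPM. Gm1821, a transcribed pseudogene by the RefSeq table, had 5431 ± 520 TPM. Many of these genes, Dppa5a, Ppia and the ribosomal protein genes among them, have near-identical processed copies in the mouse genome, so their levels carry the uncertainty of how reads were shared out.

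**Figure D1:**
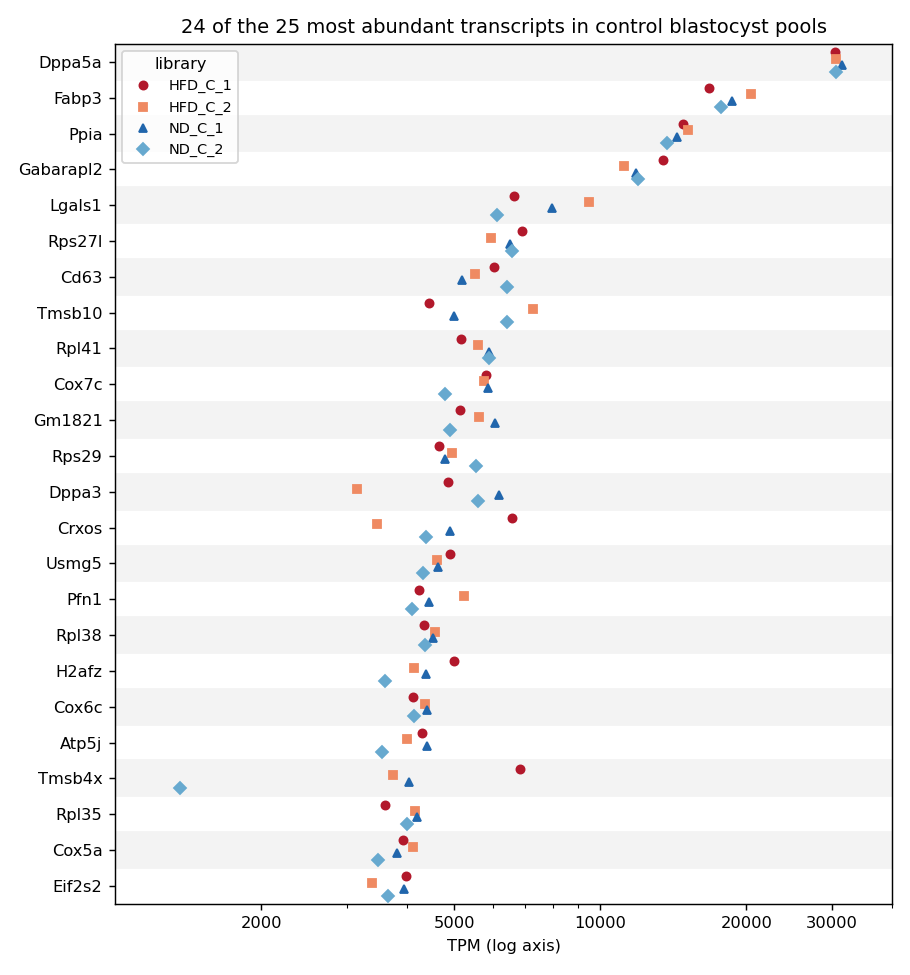
TPM (log axis) of 24 of the 25 genes of highest mean TPM in each of the 4 control libraries, HFD_C in reds and ND_C in blues. The first 4 genes lie above 10000 TPM in every library, and Tmsb4x shows the widest scatter, between 1362 and 6814 TPM.

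The ranking favoured short transcripts. The 100 highest genes by TPM had a median effective length of 415 bases, against 1103 bases for the 100 highest by expected counts and 2184 bases over the genes at or above 1 TPM. The rankings shared 53 of their 100 genes. By counts Dppa5a was still first, with a mean of 624390 counts, and Hsp90aa1, a cytosolic heat shock chaperone, was second, with 460740 counts and 3635 ± 223 TPM. Actg1, a cytoplasmic actin, stood seventh by counts and at rank 40 by TPM. Among the genes that rose most in rank when counts were used were N4bp2l2, Tfcp2l1, Mbnl3 and Cnot1, with effective lengths between 8154 and 9051 bases. Those that fell most were Cox7a1, Gm10012, Smim22, AA465934 and BC100530, all between 154 and 225 bases.

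The sequence before the start site also differed between abundant and silent genes, and 5 promoters are shown to make this visible. Each is the 250 bases before a start site of a RefSeq gene (GRCm38.p6), with every CG pair in capitals. For Ptprc this start site lies inside the span of the gene, chr1:138062859-138175756. Ppia and Fabp3 were among the 4 highest genes, Krt18 is the keratin given above, and Ptprc, the leukocyte marker CD45, and Olfr1, an olfactory receptor, had 0 counts in all 4 libraries.
Ppia: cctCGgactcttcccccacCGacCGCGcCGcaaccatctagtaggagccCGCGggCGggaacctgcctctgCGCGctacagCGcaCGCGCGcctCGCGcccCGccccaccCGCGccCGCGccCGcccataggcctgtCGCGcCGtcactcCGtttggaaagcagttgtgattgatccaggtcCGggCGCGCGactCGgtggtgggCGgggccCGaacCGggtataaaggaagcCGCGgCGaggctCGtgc
Fabp3: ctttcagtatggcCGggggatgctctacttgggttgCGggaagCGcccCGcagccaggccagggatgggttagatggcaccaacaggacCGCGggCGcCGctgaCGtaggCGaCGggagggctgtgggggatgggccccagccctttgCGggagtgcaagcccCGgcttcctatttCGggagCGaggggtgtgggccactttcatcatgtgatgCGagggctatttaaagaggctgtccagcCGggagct
Krt18: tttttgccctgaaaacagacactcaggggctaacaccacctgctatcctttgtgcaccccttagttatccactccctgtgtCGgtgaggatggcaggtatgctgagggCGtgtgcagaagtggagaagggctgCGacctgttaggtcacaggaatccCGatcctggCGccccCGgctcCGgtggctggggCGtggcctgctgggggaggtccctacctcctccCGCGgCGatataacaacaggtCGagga
Ptprc: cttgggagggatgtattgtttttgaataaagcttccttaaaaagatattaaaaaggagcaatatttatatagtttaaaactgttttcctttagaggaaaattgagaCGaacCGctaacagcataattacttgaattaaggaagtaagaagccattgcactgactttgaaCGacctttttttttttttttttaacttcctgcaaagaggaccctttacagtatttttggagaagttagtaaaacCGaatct
Olfr1: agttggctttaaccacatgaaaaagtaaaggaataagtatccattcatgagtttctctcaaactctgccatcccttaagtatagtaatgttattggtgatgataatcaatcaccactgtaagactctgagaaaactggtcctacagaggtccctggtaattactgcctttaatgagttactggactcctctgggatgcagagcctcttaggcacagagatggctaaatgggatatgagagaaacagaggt
They lie at chr11:6415617-6415866 on the plus strand (Ppia), chr4:130308488-130308737 on the plus strand (Fabp3), chr15:102027966-102028215 on the plus strand (Krt18), chr1:138175306-138175555 on the minus strand (Ptprc, the first of 2 promoters in the table) and chr11:73399496-73399745 on the minus strand (Olfr1). Ppia held 38 CG pairs, Fabp3 17 and Krt18 12, whereas Ptprc held 4 and Olfr1 0. Ppia carried TATAAA on its coding strand, 29 bases before the start, Ptprc carried it on the opposite strand, and the other 3 windows held none. Dppa5a, Lgals1 and Dppa3 were not matched.

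Over all matched protein-coding genes, the median number of CG pairs in this window was 17 (191 promoters) at a mean of 1000 TPM or more, 16 at 10 to 100 TPM and 15 at 1 to 10 TPM. It was 6 for genes with a count but under 1 TPM and 2 (2133 promoters) for genes with 0 counts in all 4 libraries. The share of G and C was 58.8% in the highest class and 43.2% in the silent class. TATAAA, read on both strands, was present in 6.28% of promoters of the highest class, in 28.5% of those of silent genes and in 12.4% of all promoters in the table. CCAAT, on both strands, was in 34.6% of the highest class, in 36.7% of the silent class and in 33.9% of all promoters in the table. Among the classes above 1 TPM the medians differed by at most 2 pairs. These are counts of letters over genes, which share families and chromosomes, and no test was made on them. Promoters of 17224 genes of the files were matched by symbol, chromosome 18 left out.

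**Figure D2:**
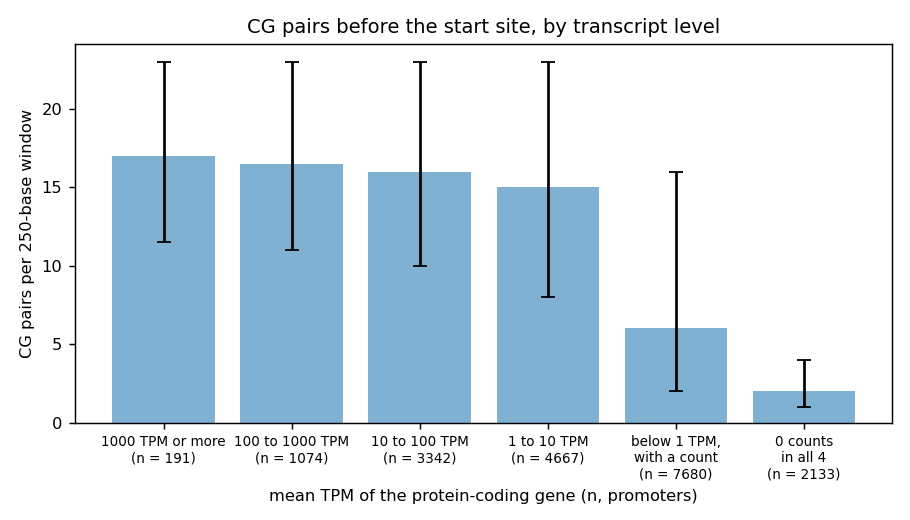
Median number of CG pairs in the 250 bases before the start site (bars, with the 25th to 75th percentile as lines) for protein-coding genes by their mean TPM in the 4 control libraries. The bars stand at 15 to 17 for genes above 1 TPM and at 2 for genes with 0 counts.

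Genes were also read by 34 lists with measured members, each list ranked by the median percentile of its members among all 24411 genes. The highest lists were those of protein synthesis, respiration and protein breakdown. The 86 ribosomal protein genes had a median level of 1579 TPM at the 99.5th percentile and held 15.2% of all TPM. All but Rpl3l, a muscle paralog of Rpl3 at 0.122 TPM, were at or above 1 TPM in all 4 libraries. Nuclear subunits of respiratory complexes III to V followed at a median of 1277 TPM with 7.0% of the TPM, and complex I at 577 TPM with 2.96%. Cox7c, a subunit of cytochrome oxidase, led that list with 5553 ± 515 TPM, and Ndufa4, an electron transport subunit long listed with complex I, led the complex I list with 3003 ± 138 TPM. The 3 subunits of complexes III to V under 1 TPM in at least 1 library were Cox4i2, Cox6a2 and Cox8b, isoforms known from lung, muscle or brown fat. The genes encoded by mitochondrial DNA were not analysed here.

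The proteasome list reached a median of 346 TPM, led by Psma7, a ring subunit, with 1620 ± 65.4 TPM. Psmb8 and Psmb11, catalytic subunits of the immune and thymus proteasomes, had means of 0.01 and 0.05 TPM. Translation factors had a median of 217 TPM, and after Eif2s2 came Eef1a1, which carries aminoacyl-tRNA to the ribosome, with 2852 ± 261 TPM. Its muscle and nerve paralog Eef1a2 had 0.0025 TPM. Chaperones had a median of 90.5 TPM, with Hsp90aa1, Hspa8 at 2350 ± 210 TPM and the mitochondrial co-chaperonin Hspe1 at 1432 ± 161 TPM in front. The stress-inducible Hspa1a and Hspa1b were at 0.0675 and 0.560 TPM.

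**Figure D3:**
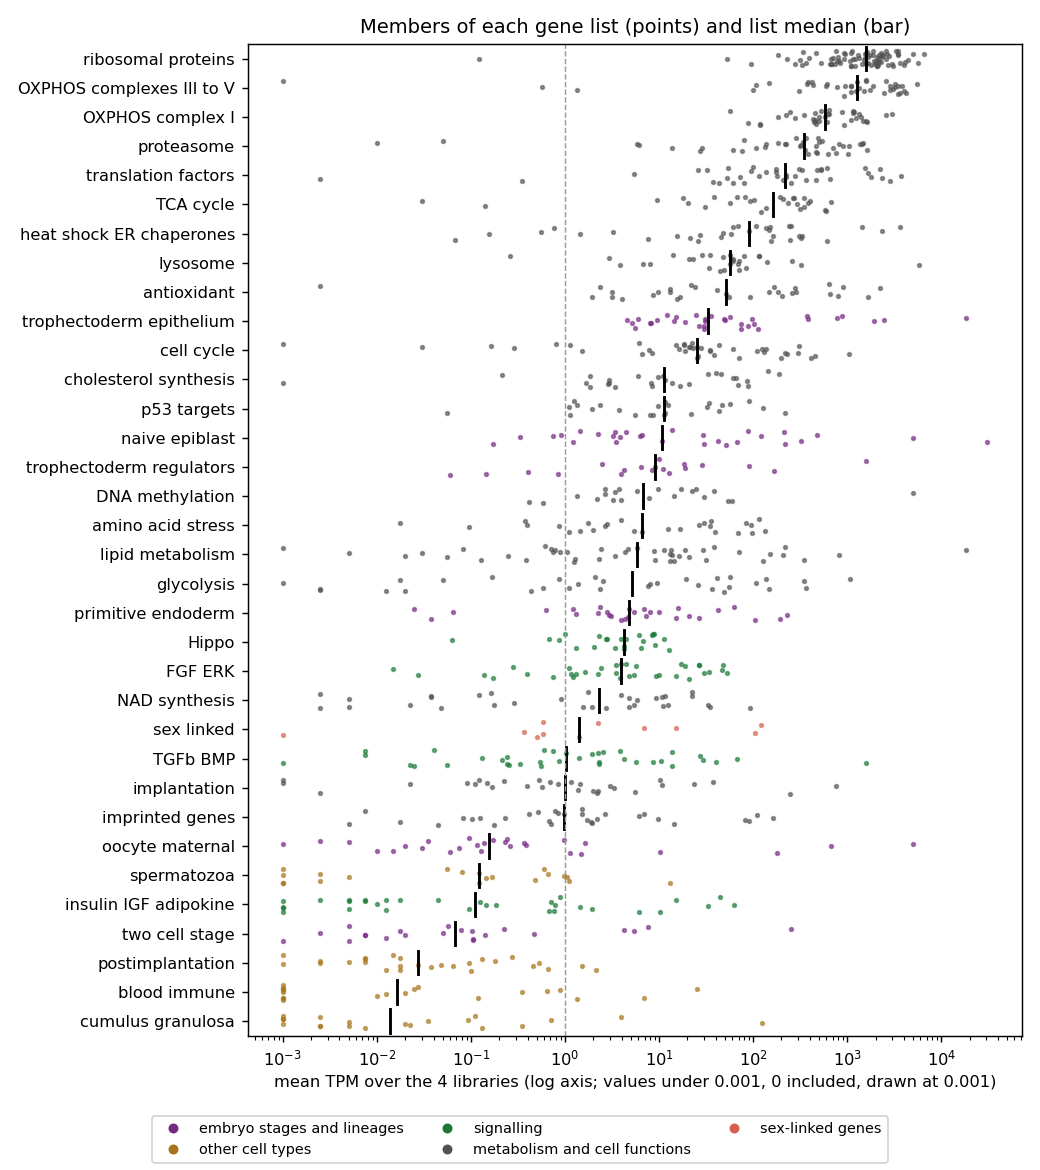
Mean TPM (log axis) of every member of 34 gene lists over the 4 control libraries, with the list median as a black bar and lists ordered by it. Ribosomal and respiratory lists stand at the top, with medians of 577 to 1579 TPM, and lists of blood, cumulus and later-stage genes at the bottom, with medians below 0.03 TPM.

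Fuel genes showed a marked choice of paralogs. For sugar entry, the high-affinity glucose transporter Slc2a3 had 56.2 ± 12.1 TPM and held 75.4% of the summed level of 5 glucose transporters, with Slc2a1 at 9.55 ± 1.97 TPM and the insulin-responsive Slc2a4 at 0.333 TPM. Hexokinase was almost all Hk2, at 48.7 ± 10.9 TPM against 0.590 TPM for Hk1. In both families a single member made up most of the level. Aldolase was Aldoa, at 362 ± 55.2 TPM against 0.430 TPM for Aldoc. Phosphoglycerate mutase and phosphofructokinase had no such leading member. Pgam2, known as the muscle form, had 149 ± 25.9 TPM and Pgam1 had 138 ± 9.87 TPM. The phosphofructokinase genes, which encode the committing step of glycolysis, were low, with Pfkl at 2.55, Pfkm at 2.06 and Pfkp at 1.38 TPM. Gapdh led the list at 1066 ± 146 TPM, and 19 of its 32 members passed 1 TPM in all 4 libraries.

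The TCA cycle stood above glycolysis per gene, with a median of 165 TPM over 28 members against 5.09 TPM over 32. Its leading members were Mdh2, mitochondrial malate dehydrogenase, at 676 ± 47.0 TPM, Suclg1, a subunit of succinyl-CoA ligase, at 589 ± 26.0 TPM, and Sdhb, a subunit of complex II, at 576 ± 53.4 TPM. Pcx, pyruvate carboxylase, and Pdha2, the testis form of a pyruvate dehydrogenase subunit, were the 2 members below 1 TPM, at 0.140 and 0.0300 TPM. The list medians are over members that include tissue-specific paralogs, so they describe the lists and not flux.

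Lipid genes were dominated by Fabp3, which held 89.2% of the summed TPM of 45 members. Fabp5, another fatty acid binding protein, had 820 ± 130 TPM, while Fabp4, the adipocyte form, had 3.42 TPM and Fabp1, the liver form, 0.248 TPM. Oxidation genes were well represented, with Acadm, medium-chain acyl-CoA dehydrogenase, at 347 ± 9.45 TPM, Hadh at 217 ± 29.6 TPM and Hadhb at 151 ± 8.18 TPM. Among lipid droplet coat genes Plin2 had 207 ± 24.4 TPM and held 86.4% of the perilipin level, and the adipocyte form Plin1 had 0 counts. Fatty acid synthesis genes were lower, with Fasn at 1.06 and Acaca at 0.705 TPM. Of 28 cholesterol synthesis genes 26 passed 1 TPM in all 4 libraries. Fdps, farnesyl diphosphate synthase, had 189 ± 35.2 TPM, and Msmo1, a sterol demethylase component, had 145 ± 42.6 TPM.

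Nampt, which makes the NAD precursor nicotinamide mononucleotide and is the gene the series targeted elsewhere, had 14.7 and 13.6 TPM in HFD_C and 12.4 and 9.23 TPM in ND_C. Its partner Nmnat1, which completes NAD in the nucleus, had 11.4 ± 1.32 TPM. Nmrk1, which makes the same intermediate from nicotinamide riboside, was higher, at 33.2 ± 5.16 TPM. The enzymes of NAD synthesis from tryptophan were near 0, with Tdo2, Ido1, Ido2, Kmo, Kynu and Haao at 0.0025 to 0.123 TPM. Parp2, a poly(ADP-ribose) polymerase, led the list at 92.9 ± 3.00 TPM, above Parp1 at 22.3 ± 2.69 TPM. By mean, Nampt, Nmnat1 and Nmrk1 thus lay above 10 TPM, and none of the 6 genes named for the tryptophan route did. In ND_C replicate 2 Nampt and Nmnat1 were at 9.23 and 9.51 TPM. Not every enzyme of these routes is named here, so whole routes are not compared. The sirtuins, NAD-dependent deacylases, lay between 2.7 TPM for Sirt5 and 11 TPM for Sirt1.

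Trophectoderm genes came in 2 tiers. All 34 genes of the epithelial list passed 1 TPM in every library, with a median of 33.4 TPM, and the 19 regulators had a median of 9.08 TPM with 15 past 1 TPM. Tspan8, a tetraspanin, had 1943 ± 490 TPM, and Epcam, an epithelial adhesion protein, 788 ± 80.5 TPM. Krt8, the partner of Krt18, had 754 and 918 TPM in HFD_C and 905 and 913 TPM in ND_C, which leaves HFD_C replicate 1 below the other 3. The tight junction claudins Cldn4 and Cldn7 had 381 ± 46.2 and 373 ± 56.3 TPM. Of the sodium pump that drives cavity filling, the beta subunits Atp1b3 and Atp1b1 had 112 ± 7.40 and 88.4 ± 9.11 TPM. The water channels Aqp3, Aqp9 and Aqp8 had 35.7 ± 7.34, 31.1 ± 5.21 and 30.5 ± 9.48 TPM.

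Among trophectoderm regulators Id2, an inhibitor of basic helix-loop-helix factors, held 80.2% of the summed level. It had 1753 and 1840 TPM in HFD_C and 1665 and 1104 TPM in ND_C, with ND_C replicate 2 lowest. The transcription factors Klf5, at 166 ± 22.9 TPM, and Gata3, at 90.1 ± 14.9 TPM, followed. Cdx2, which is required to keep the trophectoderm fate, had 4.87 and 10.2 TPM in HFD_C and 5.62 and 5.12 TPM in ND_C, so that HFD_C replicate 2 stood apart from the other 3. Eomes had 28.4 ± 5.82 TPM. Factors of later trophoblast, Hand1, Ascl2 and Dlx3, stayed at means of 0.145, 0.835 and 0.0600 TPM. Of the Hippo pathway, which reads cell position to set Cdx2, 18 of 23 members passed 1 TPM. Tead4, the DNA-binding partner, had 9.08 ± 1.11 TPM, and its coactivators Wwtr1 and Yap1 had 12.8 ± 0.955 and 3.96 ± 0.857 TPM.

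Of 29 naive epiblast genes 24 passed 1 TPM in all 4 libraries, at a median of 10.8 TPM. Dppa5a held 82.2% of the list's TPM. Fbxo15, an F-box protein of undifferentiated cells, had 482 ± 30.7 TPM, Dppa2 326 ± 72.0 TPM and Zfp42, a zinc finger protein also called Rex1, 213 ± 11.4 TPM. The core factors were lower: Nanog had 51.3 ± 11.6 TPM, Pou5f1 30.2 ± 1.73 TPM, Klf4 10.8 ± 2.21 TPM and Sox2 3.36 ± 0.809 TPM. Pou5f1 varied little, with 27.8 and 30.3 TPM in HFD_C and 31.0 and 31.8 TPM in ND_C. Tdgf1, the Nodal co-receptor Cripto, had 67.6 ± 11.6 TPM, while Nodal itself had 0.333 TPM and Lefty1, its inhibitor, 0.748 TPM.

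Primitive endoderm genes were lower still, with a median of 4.79 TPM over 29 members, of which 24 passed 1 TPM. The endocytic adaptor Dab2 led with 227 ± 25.4 TPM, then Apoe, a lipid carrier, with 194 ± 59.1 TPM, and Sparc, a matrix protein, with 104 ± 21.3 TPM. Gata4 had 2.67 and 5.49 TPM in HFD_C and 5.37 and 5.62 TPM in ND_C, and Sox17 had 5.86 and 5.72 TPM in HFD_C and 8.56 and 8.90 TPM in ND_C. Pdgfra, a receptor of this lineage, had 8.0 ± 1.61 TPM. Laminin and collagen genes of the basement membrane lay between 2.96 TPM for Col4a2 and 20.7 TPM for Lamb1. The yolk sac products Ttr and Afp were at 0.0650 and 0.0250 TPM. HFD_C replicate 1 was the lowest library for 17 of the 24 members past 1 TPM, against 38.5% of all 8981 genes past 1 TPM. This was not particular to the lineage, as the same library was lowest for 13 of 19 glycolysis genes and 18 of 29 chaperone genes.

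Of 35 genes of the FGF and ERK pathway, which separates epiblast from primitive endoderm, 25 passed 1 TPM in all 4 libraries, with a list median of 3.98 TPM. Fgf4, the ligand made by the epiblast, had 1.70 and 2.53 TPM in HFD_C and 2.96 and 1.81 TPM in ND_C, with overlapping groups. Fgf10, another ligand, had 5.46 ± 1.88 TPM. The receptor gene Fgfr2 had 26.6 ± 5.67 TPM, 82.6% of the summed level of 4 FGF receptors, and Fgfr1 had 3.98 ± 0.364 TPM. Of the kinases, Araf had 52.6 TPM and Map2k1 30.3 TPM, both above Braf at 1.63 and Mapk3 at 3.48 TPM. Among feedback inhibitors Spry2 and Dusp6 had 21.0 and 18.9 TPM, and Spry4 and Spred1 had 1.17 and 1.22 TPM.

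**Figure D4:**
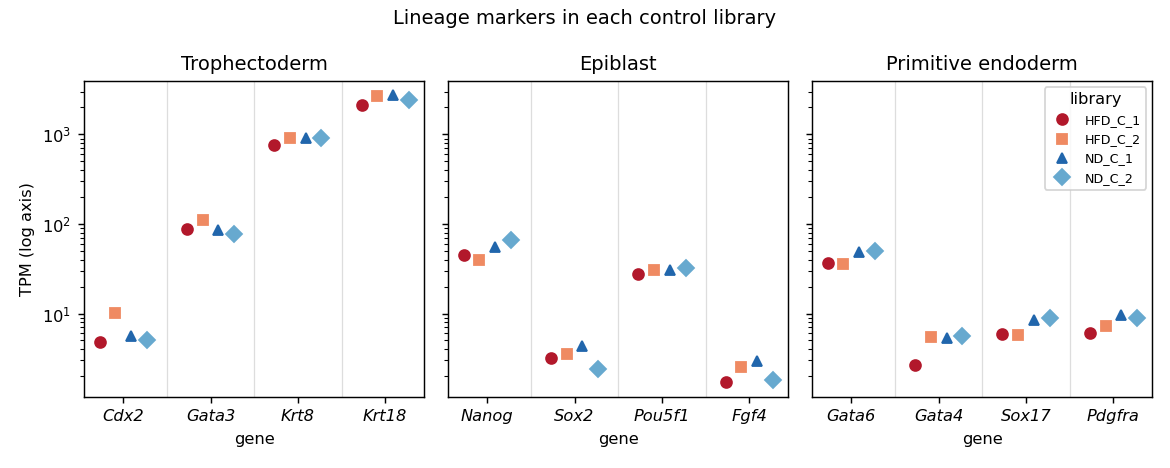
TPM (log axis) of 4 markers each of trophectoderm, epiblast and primitive endoderm in each control library, HFD_C left of ND_C within each gene. Krt8 and Krt18 lie between 754 and 2729 TPM, Nanog, Pou5f1 and Gata6 between 27 and 66 TPM, and Sox2, Fgf4 and Gata4 below 6 TPM.

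Chromatin and imprinted genes had their own order. Of the DNA methyltransferases Dnmt3l, a cofactor without catalytic activity, was highest at 59.7 ± 7.06 TPM, then the de novo enzyme Dnmt3b at 30.0 ± 5.63 TPM, with Dnmt3a at 3.21 TPM and the maintenance enzyme Dnmt1 at 2.17 TPM. Tet2 had 9.80 ± 1.14 TPM, Tet1 3.43 TPM and Tet3, the form of the zygote, 0.580 TPM. Of 31 imprinted genes, expressed from 1 parental copy, 11 passed 1 TPM in all 4 libraries. Snrpn at 161 ± 8.07 TPM, Gnas at 110 ± 8.78 TPM and Slc38a4 at 81.6 ± 6.03 TPM were high, while H19 had 2.65 and Igf2 0.718 TPM.

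The cell cycle list had a median of 25.4 TPM with 36 of 42 members past 1 TPM. Birc5, or survivin, a mitotic and anti-apoptotic protein, led with 1036 ± 130 TPM, then Gmnn, a replication licensing inhibitor, with 449.0 ± 37.1 TPM and Ccnb1, the mitotic cyclin, with 416 ± 32.2 TPM. Of the D-type cyclins Ccnd3 held 99.4% at 34.5 TPM. Of the cell cycle brakes, Cdkn1b and Cdkn2a were at 0.285 TPM and 0 counts. Another brake, Cdkn1a, was higher in every library, as given further on with the p53 targets. Of 31 antioxidant genes 30 passed 1 TPM, led by Prdx1, a peroxiredoxin, at 2231 ± 243 TPM and Gpx1, a glutathione peroxidase, at 1656 ± 208 TPM.

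Of 32 insulin, IGF and adipokine genes 8 passed 1 TPM in all 4 libraries. The receptors Insr and Igf1r had 0.788 and 0.0950 TPM, the docking proteins Irs1 and Irs2 0.0125 and 0.00500 TPM, and the leptin gene Lep 0 counts. Adipor1, an adiponectin receptor, was at 44.3 ± 5.44 TPM, and Prkab1, a regulatory subunit of the energy sensor AMPK, at 62.1 ± 11.1 TPM. Among implantation genes Bsg, or basigin, had 756 ± 73.8 TPM and Spp1, the integrin ligand osteopontin, had 78.8 and 429 TPM in HFD_C and 223 and 245 TPM in ND_C.

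Few of the genes known from earlier or later stages or from other cells were expressed, but the oocyte list still held 0.581% of the TPM, of which Dppa3 made up 85.0%. Of 28 oocyte genes 4 passed 1 TPM: Dppa3, Khdc3 at 671 ± 47.1 TPM, Ooep at 181 ± 26.8 TPM and Sohlh2 at 10.2 ± 2.19 TPM. Khdc3 and Ooep encode parts of the subcortical maternal complex, whose other members Nlrp5 and Tle6 were at 0.0350 and 1.63 TPM. The oocyte-defining Zp3, Gdf9 and Bmp15 had 0.965, 0.0950 and 0.0300 TPM. Of 22 genes of the 2-cell stage 3 passed 1 TPM. The translation factor Eif1a, at 251 ± 27.1 TPM, held 93.1% of the list's level, and the 5 Zscan4 genes lay at or below 0.0175 TPM. Gm8300 stood out in a single library, with 0.590 and 0.680 TPM in HFD_C and 13.2 and 2.28 TPM in ND_C.

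Of 20 cumulus and granulosa genes 2 passed 1 TPM, Serpine2, a protease inhibitor, at 125 TPM and Nr5a2, a nuclear receptor also known from embryonic cells, at 3.98 TPM. The summed level of the list was 152 and 128 TPM in HFD_C and 128 and 115 TPM in ND_C, of which Serpine2 made up 95.8%. The cumulus-defining Ptx3 had 0 counts, and Has2, Fshr and Cyp19a1 had 0.133, 0.0075 and 0.0025 TPM. The sperm list summed to 15.8 and 18.3 TPM in HFD_C and 17.1 and 22.9 TPM in ND_C. Of its 20 members 1, Odf2, passed 1 TPM in all 4 libraries. Among the sperm-defining markers Tnp1 had 0 counts, but Prm1 and Prm2 had means of 0.6 and 0.655 TPM. Prm1 reached 1.48 TPM in ND_C replicate 2 and Prm2 1.45 TPM in ND_C replicate 1. Tnp2 and Ldhc, also on the sperm list, had means of 1.06 and 1.10 TPM. The blood list summed to 32.8 and 25.5 TPM in HFD_C and 29.6 and 55.7 TPM in ND_C, mostly Cd68, a lysosomal protein, at 25.5 TPM. Of the blood-defining markers, Ptprc, Hba-a1 and Hbb-b1 had 0 counts, while Hba-a2, whose transcript is nearly identical to that of Hba-a1, had 6.92 TPM. Of 27 genes of later tissues 1, Tnnt2, which encodes cardiac troponin T, passed 1 TPM in all 4 libraries, at 2.13 TPM. Gsc, a gastrulation homeobox gene, had a mean of 1.51 TPM, and the defining T, Sox1, Pax6 and Prl3d1 lay between 0 and 0.0950 TPM.

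Of the 24411 genes 4748 had 0 counts in all 4 libraries, or 19.5%. They included 2657 protein-coding genes, 12.9% of those, and 1180 of 1184 miRNA genes. For 1265 genes, 1147 of them miRNA genes, the effective length was 0 in at least 1 of the 4 files, and for 1201 in all 4. An effective length of 0 means that the transcript is shorter than the fragments, so that a count of 0 there says nothing about the gene. Families of sensory receptors were low: 653 of 1125 olfactory receptor genes had 0 counts and none of them, in any of the 4 libraries, reached 1 TPM. Of the vomeronasal receptors 121 of 209 of type 1 and 38 of 126 of type 2 had 0 counts, and none passed 1 TPM in all 4 libraries. Likewise 35 of 53 keratin-associated genes and 22 of 26 prolactin family genes had 0 counts. Of 42 Hox genes 7 had 0 counts and 1, Hoxd8, passed 1 TPM, at 3.11 TPM. By contrast all 77 mitochondrial ribosomal protein genes passed 1 TPM and 5 of 368 Zfp genes had 0 counts.

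A count in all 4 libraries was found for 14371 genes, in 3 for 1353, in 2 for 1605 and in 1 for 2334. The genes seen in 1 library had a median of 0.5 counts averaged over the 4 libraries. Among them Cphx1, a homeobox gene of the cleavage embryo, had 239 counts in HFD_C replicate 2, Spz1, a testis transcription factor, 174 counts in ND_C replicate 1, Rplp2-ps1, a pseudogene, 196 counts in ND_C replicate 2, Gm10147 59.2 counts in ND_C replicate 1 and Tcstv3, a 2-cell-stage gene, 58.5 counts in HFD_C replicate 1. These 5 are the highest of their kind and each is at 0 in the other 3 libraries.

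The 4 libraries were close to each other. Over the 8981 genes the median absolute difference of log2(TPM + 1) between any 2 libraries lay between 0.16, for HFD_C replicate 2 against ND_C replicate 1, and 0.23, for HFD_C replicate 1 against ND_C replicate 2. The pair within HFD_C differed by 0.22 and the pair within ND_C by 0.18, and the pairs that share a batch number by 0.19 and 0.18. Differences across HFD_C and ND_C therefore fell on both sides of those within each group. Between 66 and 230 genes, 0.735% to 2.56%, differed by more than 2-fold in a pair. The median coefficient of variation over the 4 libraries was 19.3% for genes of 1 to 10 TPM, 12.4% for 10 to 100 TPM, 9.58% for 100 to 1000 TPM and 7.62% above that.

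Some genes held nearly the same level in all 4. Among 2128 genes with a mean of at least 50 TPM the median SD of log2(TPM + 1) was 0.14, and the smallest belonged to Eif2a, a translation factor, with 61.0 and 61.4 TPM in HFD_C and 60.1 and 60.4 TPM in ND_C. Rfc2, Tm2d3, Wdr83os, Wbscr22, Mrpl36, Slc25a5, Atp5j2, Rbm8a and Dppa5a followed. Slc25a5, the ADP/ATP carrier of mitochondria, stayed between 1606 and 1653 TPM, and Dppa5a had a coefficient of variation of 1.37%.

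The largest spreads belonged to AA465934, Phlda2, Nupr1, Ly6e, Bex1, Xlr, Tmem14c, Ngfrap1, Rhox5 and Hspb1. These genes were chosen for their spread, so their values are a description with no test. AA465934, a long noncoding RNA, had 1.38 and 72.0 TPM in HFD_C and 0.680 and 196 TPM in ND_C, high in both replicates numbered 2. Phlda2, an imprinted growth restrainer of the placenta, had 26.4 and 62.5 TPM in HFD_C and 7.76 and 266 TPM in ND_C, and Hspb1, a small heat shock protein, had 127 and 271 TPM in HFD_C and 88.6 and 522 TPM in ND_C. Ly6e and Tmem14c were likewise higher in both replicates numbered 2, with Ly6e at 20.1 and 128 TPM in HFD_C and 14.5 and 107 TPM in ND_C. The replicate number is the batch in the labels, and with 1 library of each group per batch the part of the batch in these spreads was not tested.

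Nupr1, a stress-induced chromatin protein, was high in 1 library, with 43.9 and 279 TPM in HFD_C and 51.1 and 18.4 TPM in ND_C. It belongs to the amino acid stress list, whose summed level was 655 and 1216 TPM in HFD_C and 774 and 638 TPM in ND_C. HFD_C replicate 2 was the highest library for 14 of the 17 members past 1 TPM, against 28.2% of all genes past 1 TPM. The same library was also highest for 19 of 29 chaperone genes and 12 of 19 glycolysis genes. Mthfd2, a mitochondrial folate enzyme, had 17.3 and 47.3 TPM in HFD_C and 29.9 and 12.6 TPM in ND_C, and Psat1, of serine synthesis, had 82.8 and 141 TPM in HFD_C and 90.6 and 68.5 TPM in ND_C. Among p53 targets another library was highest, ND_C replicate 2, for 15 of 19 members, against 32.6% of all genes. That library was also highest for 17 of 29 lysosomal genes. Cdkn1a, which encodes the cell cycle inhibitor p21, had 35.9 and 34.3 TPM in HFD_C and 36.4 and 66.3 TPM in ND_C.

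Of the 10 most variable genes 4 lie on the X chromosome (Bex1, Xlr, Ngfrap1 and Rhox5). Of the 50 most variable, 11 are X-linked, or 22.0%, against 91 of the 2120 genes of at least 50 TPM with a known chromosome, or 4.29%. This is a count and was not tested. Over the 91 X-linked genes the median deviation from the gene's mean of log2(TPM + 1) was 0.07 and -0.14 in HFD_C and -0.07 and 0.14 in ND_C, while for 2028 autosomal genes it lay between -0.02 and 0.01. Single genes differed in which library was lowest. Bex1 had 26.3 and 142 TPM in HFD_C and 267 and 180 TPM in ND_C, lowest in HFD_C replicate 1 as for Ngfrap1, whereas Tmsb4x had 6814 and 3740 TPM in HFD_C and 4040 and 1362 TPM in ND_C, lowest in ND_C replicate 2. The Y-linked Eif2s3y, a translation initiation factor, had 127 and 114 TPM in HFD_C and 135 and 46.0 TPM in ND_C, and Ddx3y, an RNA helicase, had 17.3 and 20.2 TPM in HFD_C and 16.5 and 7.03 TPM in ND_C. Xist, the RNA that silences an X chromosome in female cells, had 5.98 and 6.00 TPM in HFD_C and 4.06 and 11.6 TPM in ND_C, and Tsix, which overlaps it on the other strand, 104 and 91.6 TPM in HFD_C and 84.0 and 203 TPM in ND_C. Reads of this pair cannot be told apart without strand. ND_C replicate 2 was thus lowest for the Y-linked pair and highest for Xist and Tsix, and the part of the sex of the pooled embryos in the spread was not tested.

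**Figure D5:**
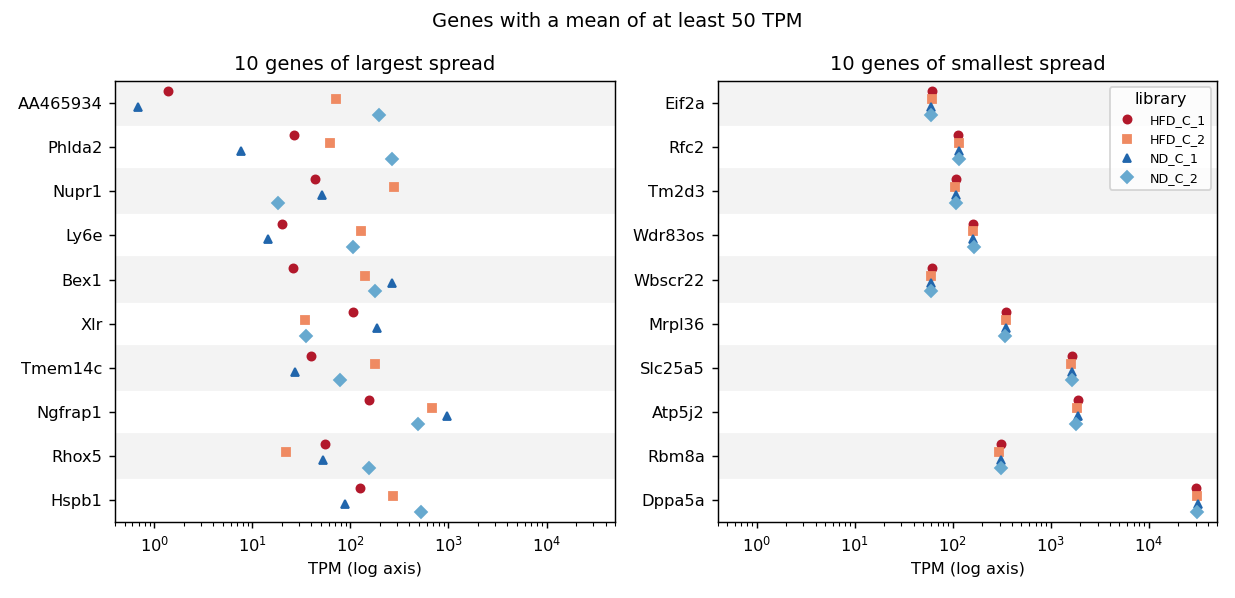
TPM (log axis) in each control library of the 10 genes with the largest (left) and the 10 with the smallest (right) SD of log2(TPM + 1) among genes with a mean of at least 50 TPM, HFD_C drawn above ND_C. On the left AA465934 runs between 0.680 and 196 TPM, and on the right Dppa5a lies between 30505 and 31417 TPM.

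HFD_C replicate 1 was the lowest library for 3461 of the 8981 genes past 1 TPM, the largest such count of the 4 libraries, and had the fewest genes at or above 1 TPM. It was lowest for 47 of 85 ribosomal protein genes and 19 of 34 epithelial genes of the trophectoderm past 1 TPM. It was also the library with the widest gap between transcript length and effective length, a measure of fragment size, at 231 bases, against 211 to 218 bases in the other 3. The part of fragment size in these counts was not tested.

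The number of genes called between HFD_C and ND_C was 0 in the main test and depended on the method. Of 14743 genes tested, 0 passed an adjusted p of 0.05 in edgeR's quasi-likelihood test, or 0% of those tested, and 414 (2.81%) had an unadjusted p under 0.05, with 207 higher and 207 lower in HFD_C. Without a filter on low counts 80 genes passed. DESeq2 called 7 genes, all lower in HFD_C (Abcb5, Eif3j1, Gm4027, Guca1a, Ifng, Trim43b and Tspan7), and limma on log2(TPM + 1) called 0. The p-values measure the spread between these pools, and nothing in the labels says that pools of a group came from separate mice. With 2 libraries a group the median SE of a log2 fold change, derived from the test statistic, was 0.22 for genes of at least 5 CPM. A count of 0 genes therefore does not show that differences were small.

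The 5 genes of smallest p were Gm4027, Ifng, Txnip, Acsl3 and Trim43b, none of which passed in edgeR with the filter on low counts. In edgeR without that filter, the adjusted p was 8.43e-33 for Gm4027, 1.47e-10 for Ifng and 1.09e-06 for Trim43b, against 0.303 for Txnip and 0.174 for Acsl3. The expected counts of Gm4027, Txnip, Acsl3 and Trim43b were not whole, so some of their reads were shared out by estimation. The part of this sharing in their differences was not tested. Gm4027 had 0.0700 and 0.160 TPM in HFD_C and 40.5 and 10.03 TPM in ND_C. Its log2 fold change was -7.68 (SE 1.28, edgeR adjusted p = 0.712 with the filter). With the filter and the 4 controls alone, its edgeR adjusted p was 0.0571. The fold change was -6.30 without ND_C replicate 1 and -8.38 without ND_C replicate 2, and -7.33 and -8.19 without HFD_C replicate 1 and replicate 2. Ifng, the cytokine interferon gamma, had 0 counts in both HFD_C libraries and 75 and 353 counts in ND_C. Taking 3 counts over the HFD_C pair as the most that counts of 0 allow, Ifng was at least 146-fold lower in HFD_C (edgeR adjusted p = 0.712 with the filter). This bound was 49.0 without ND_C replicate 2, 252 without ND_C replicate 1, and 73.9 and 72.1 without HFD_C replicate 1 and replicate 2. Txnip, an inhibitor of glucose uptake, had 15.2 and 16.0 TPM in HFD_C and 23.9 and 26.6 TPM in ND_C, a log2 fold change of -0.65 with SE 0.16. Acsl3, which activates fatty acids, had 14.2 and 18.3 TPM in HFD_C and 9.68 and 10.7 TPM in ND_C, a log2 fold change of 0.74 with SE 0.19. Trim43b, a gene of the cleavage-stage embryo, had 1.68 and 3.59 TPM in HFD_C and 14.6 and 7.05 TPM in ND_C, a log2 fold change of -2.03 with SE 0.51, and -1.35 without ND_C replicate 1. For Txnip, Acsl3 and Trim43b the adjusted p from edgeR with the filter was 1.

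By list, 0 members passed in any of the 34 lists. Over all genes tested the median log2 fold change was -0.01 and 7114 of 14743 were positive. Cholesterol synthesis had a median of 0.19 with 23 of 27 members positive, and Fdps had 207 and 226 TPM in HFD_C and 180.5 and 145 TPM in ND_C. The p53 targets had a median of -0.17 with 2 of 25 positive, and their summed level was 694 and 725 TPM in HFD_C and 717 and 924 TPM in ND_C, so that ND_C replicate 2 stood apart. Other lists leaned to 1 sign too. Amino acid stress had a median of 0.22 with 20 of 27 members positive, and the TCA cycle 0.05 with 20 of 27. Ribosomal proteins had a median of -0.07 with 19 of 86 positive, and complex I -0.05 with 10 of 37. The signs within lists were not tested. Lineage lists had medians of 0.16 for trophectoderm regulators, 0.06 for its epithelial genes, -0.12 for the naive epiblast and -0.03 for the primitive endoderm.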

How the data were processed

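Poly(A) RNA of pooled blastocysts was measured in 12 libraries, of which 4 control libraries are described. Per the file headers, the authors deposited an RSEM table per library with the expected count, TPM and FPKM of 24411 genes. The submitters' processing notes name STAR 2.7.10, RSEM 1.2.28 and mm10, and no source used here gives the strand setting. The deposited expected counts were rounded for count tests, since 6.43% were not whole. TPM values were used as deposited by the authors for levels, ranks and spread, with a pseudocount of 1 TPM on the log2 scale, and FPKM as deposited by the authors served as an alternative for the expression threshold. Counting shared reads by estimation can move reads between near-identical genes.

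HFD_C was compared with ND_C by edgeR 4.0.16 (quasi-likelihood, two-sided, TMM scaling, minimum count of 10, Benjamini-Hochberg adjustment over 14743 genes) in R 4.3.3. The 12 libraries entered as 6 group means, so that all groups shared the estimate of spread, and only HFD_C and ND_C were contrasted. Alternatives used DESeq2 1.42.0, limma 3.58.1 on log2(TPM + 1), other scalings and filters, the 4 controls alone, and each control library left out. The procedure was tested on simulated data. Descriptions used Python 3.11.15 with pandas 2.3.3. Replicate numbers equal the batch numbers in the labels, and their deviations correlated weakly between groups (r = 0.0888 over 8981 genes). The numbers are a batch label, so a fit with the replicate number as a block was also made, and it called 0 genes.

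The members and lists were chosen with earlier results of these data known. Named genes were the 25 of highest mean TPM, the leading members of each list, any lineage member, markers of other cells, the 10 most and 10 least variable genes of at least 50 TPM, the 5 highest genes seen in a single library, the 5 genes at each end of the shift in rank by counts, and the 5 of smallest p. Other genes named (low paralogs, Nampt, genes of the Y chromosome, Xist, Tsix and those called by DESeq2) were chosen after their values were seen. Some genes that the rule names are not reported here. Gene types, coordinates and promoters came from RefSeq on GRCm38.p6, where 24286 of 24411 symbols matched by name or synonym.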

Additional observations from a re-analysis of the deposited data

Results flagged for a closer look

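In 12 of 94 sets of 4 control values, the library at 1 end stood apart, with a gap to its nearest neighbour above Dixon's 95% critical share of the whole range. Chance gives such a gap in about 1 of 20 independent sets. These sets are not independent, some genes were named for their large or small spread (Nupr1, Rbm8a and Dppa5a), and some sums rest mostly on 1 gene, so that share is no yardstick for the 12.

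Of the lineage and abundant genes, Cdx2 was high in HFD_C replicate 2 at 10.2 TPM, against 4.87 to 5.62 TPM in the other 3 libraries. Krt8 was low in HFD_C replicate 1 at 754 TPM, against 905 to 918 TPM. Gata4 was low in the same library at 2.67 TPM, against 5.37 to 5.62 TPM. Dppa5a was high in ND_C replicate 1 at 31417 TPM, against 30505 to 30647 TPM. Cox7c was low in ND_C replicate 2 at 4784 TPM, against 5748 to 5865 TPM.

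Nupr1 was high in HFD_C replicate 2 at 279 TPM, against 18.4 to 51.1 TPM, and Rbm8a, a core part of the exon junction complex, was low there at 299.5 TPM, against 307 to 308 TPM.

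By list, the genes of the 2-cell stage summed to 305 TPM in HFD_C replicate 1, against 256 to 259 TPM elsewhere, most of it Eif1a. The TGF-beta and BMP list summed to 1341 TPM in ND_C replicate 2, against 1947 to 2066 TPM, and Id2 made up most of it. The TCA cycle summed to 5730 TPM in ND_C replicate 1, against 5900 to 5925 TPM. The p53 targets summed to 924 TPM and the antioxidant genes to 9281 TPM in ND_C replicate 2, against 694 to 725 TPM and 8518 to 8643 TPM in the other 3.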

How the results depend on the processing

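Between HFD_C and ND_C the count of genes called was 0 and became 80 (28 higher and 52 lower in HFD_C) with no filter on low counts and 7 with DESeq2. It was 0 with RLE scaling, a filter of 5 CPM, the 4 controls alone, limma, and each control library left out (0 to 0). With the replicate number as a block it was also 0, and the block changed no other call. For the named genes DESeq2 and edgeR with no filter were chosen after seeing the data. Gm4027, Ifng and Trim43b passed in both, with DESeq2 fold changes of -7.73, -10.19 and -2.03, and no named gene changed direction under any alternative run. The cause of these differences was not tested.

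The 100 most abundant genes held 37.3% of TPM (37.2 to 37.6 with a library left out). The share was 24.5% of expected counts when ranked by counts and 38.3% of TPM with ribosomal protein genes left out. Genes with 0 counts numbered 4748 (5261 to 5448 with a library left out), and 9401 had under 0.1 TPM in each library. Genes expressed numbered 8981 at 1 TPM (9046 to 9249 with a library left out). They numbered 7646 at 2 TPM, 10183 at 0.5 TPM, 8993 at 1 FPKM and 12300 at 10 counts. The median difference between libraries was 0.19 (0.17 to 0.21 with a library left out). It fell to 0.11 over all genes with a count, where most genes are near 0. Of 34 lists 0 moved by over 10 percentile points when ranked by counts, but 21 did (by -41.4 to 46.3) when members and ranks were limited to genes at or above 1 TPM, which drops the low members of each list. Depth limits the genes near 0 counts. Averaged over genes, the spread between pools exceeded counting error in every pair of controls, which need not hold for each gene.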
